A study of Mus musculus with 11 samples.

Results

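Transcripts of 10 endothelial junction genes were followed in 5 sorted mouse populations that lead from arterial endothelium to the hematopoietic stem cell (HSC). The genes were taken by symbol, through their Ensembl identifiers, from a gene-level table of 37820 identifiers, and all 10 were found and passed the filter on low values. They are Cdh5, Pecam1, Pcdh12, Cldn5, Tjp1, Esam, F11r, Jam2, Jam3 and Plvap. Plvap encodes a protein of endothelial diaphragms rather than of cell-cell contacts, and it was kept in the group as given. The 10 genes were abundant in arterial endothelium, in hemogenic endothelium and in pre-HSCs, except Jam2, which was low in both endothelial populations. Of the 10 genes, 9 were lower in fetal liver HSCs than in pre-HSCs, and Jam3 was near its pre-HSC level.

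Endothelial cells hold together through adherens junctions, built on VE-cadherin and its catenin partners, and through tight junctions, in which claudins and junctional adhesion molecules are tied to scaffold proteins of the zonula occludens family. Blood cells form in the embryo when hemogenic endothelial cells of the large arteries round up, bud into clusters inside the vessel and leave its wall. Several proteins of the junction are also carried by blood cells: CD31 and the junctional adhesion molecules are found on leukocytes or platelets, and ESAM is a surface marker of mouse HSCs.

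RNA-seq covered 11 libraries, 3 of them from pre-HSCs and 2 from each other population (Endo, HE, FL HSCs, BM HSCs). Endo were CD31+ cells without Runx1:GFP, c-Kit, CD45 or CD41. HE were CD31+ Runx1:GFP+ cells with low or no c-Kit and without CD45 or CD41. Both came from pooled E10.5 embryos sired by males with GFP at the endogenous Runx1 locus (Runx1tm4Dow), and cells of the dorsal aorta region and of the umbilical and vitelline arteries were combined. Pre-HSCs were CD31+ CD144+ ESAM+ c-Kit+ Ly6a:GFP+ cells from embryos with a Ly6a:GFP transgene, labelled E10.5, whereas the methods of the study give a later day. FL HSCs were Lin- Sca1+ Kit+ CD150+ CD48- cells of E14.5 fetal liver, and BM HSCs were Lin- Sca1+ Kit+ CD150+ cells of marrow from mice 6 to 8 weeks old, with further exclusion gates that the sources give differently. The labels name B6129SF1 as the strain of every library, while the methods give crosses of B6C3F1 females for the embryonic populations and both strains for BM HSCs. The sorted cells were not treated, but the mothers of the pre-HSC embryos were injected with gonadotropins to stimulate superovulation. The methods describe this for no other population. HE and Endo shared stage, tissue, reporter and cross. The methods give the same arteries as the tissue of pre-HSCs. In the other comparisons some or all of stage, tissue, reporter and cross change along with the population. Their parts in a difference cannot be told apart.

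The sort gates bear directly on 3 of the 10 genes. CD31, the product of Pecam1, was required of Endo, HE and pre-HSCs, and CD144 and ESAM, the products of Cdh5 and Esam, were required of pre-HSCs only. None of the 3 proteins was part of the FL HSC or BM HSC gate. The other 7 genes were in no gate.

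Values are FPKM, fragments per kilobase of transcript scaled to the mapped fragments of the library, which summed to between 569851 and 789161 per library. Read counts were not given, and depth is therefore unknown. Differences were tested with limma on log2(FPKM + 1) for 14708 genes in all 11 libraries, and a fold change on this scale understates the change of low genes. A gene was called when its Benjamini-Hochberg adjusted p was under 0.01 in the F test over the 5 populations and under 0.05 in the pairwise test, with at least a 2-fold change. The sources call the libraries biological replicates, and with 2 or 3 per population the spread is estimated jointly.

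Plvap and Cldn5 headed the group in Endo. By mean FPKM, the order in Endo was Plvap, Cldn5, Cdh5, Esam, Pecam1, F11r, Tjp1, Pcdh12, Jam3 and Jam2. Plvap ranked 156 and Cldn5 173 of the 37820 identifiers in that population. Neighbours whose libraries overlapped in Endo were Plvap and Cldn5, and Esam and Pecam1. In pre-HSCs Plvap still led, with Cdh5 and then Cldn5 behind it. The order was different in HSCs. It was Esam, Jam3, Pecam1, F11r, Cdh5, Plvap, Cldn5, Tjp1, Jam2 and Pcdh12 in FL HSCs, and Esam, F11r, Pecam1, Jam3, Jam2, Tjp1, Cldn5, Plvap, Cdh5 and Pcdh12 in BM HSCs. In FL HSCs the ranges of Jam3 and Pecam1 overlapped, whereas every Esam library was above every library of the other members. The 10 genes together summed to 2120 to 2251 FPKM in Endo, 1640 to 1821 in HE, 1919 to 2105 in pre-HSCs, 108 to 119 in FL HSCs and 114 to 117 in BM HSCs.

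**Figure D1:**
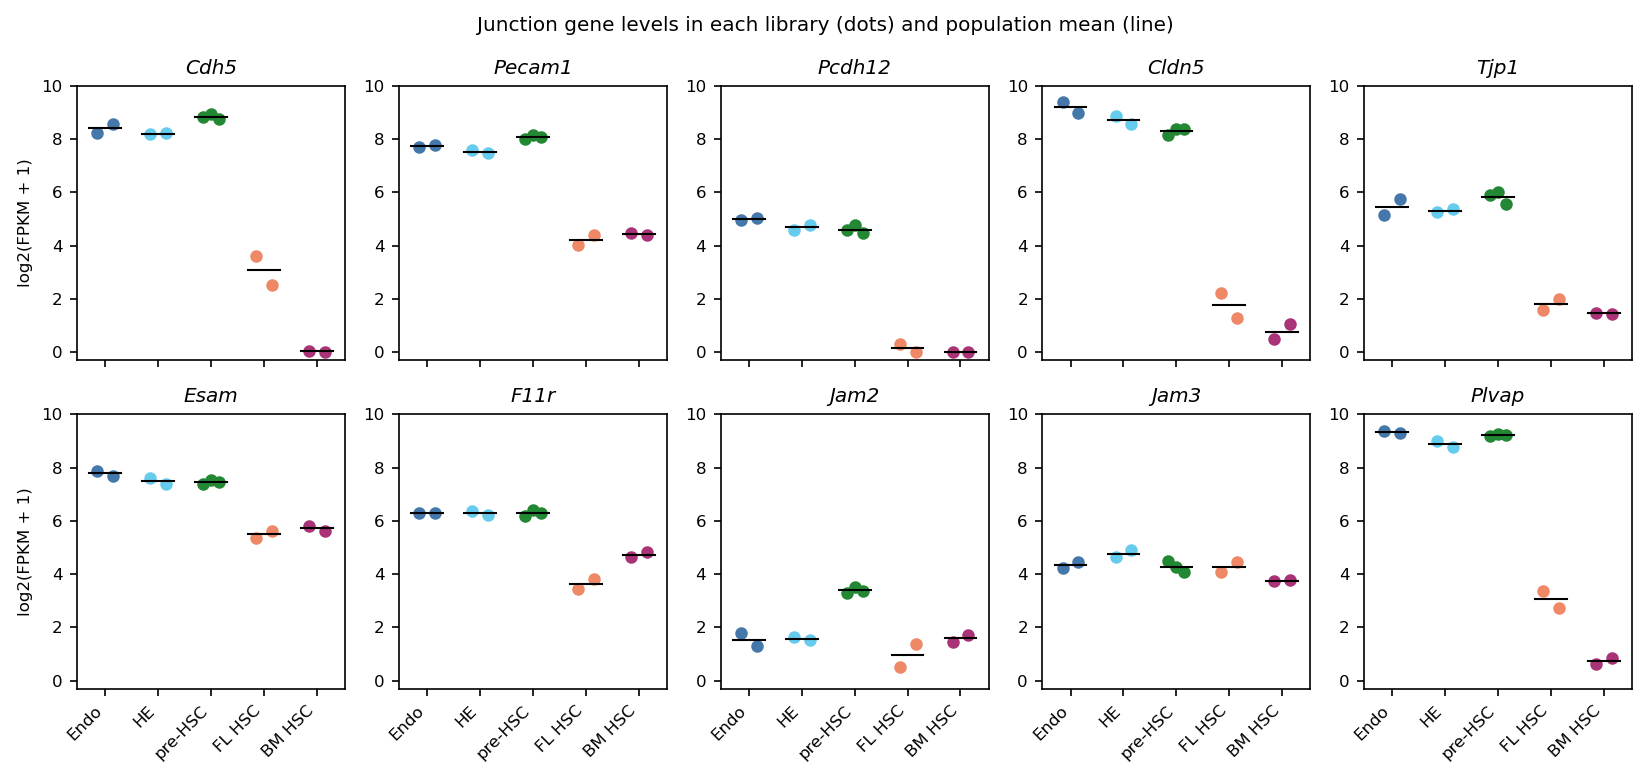
Levels of the 10 junction genes on the log2(FPKM + 1) scale, with 1 panel a gene, 1 dot a library and a line at the population mean. Libraries of Endo, HE and pre-HSCs lie close together for most genes, those of FL and BM HSCs lie well below them for 8 genes, and Jam2 stands out in pre-HSCs. Jam3 does not drop in FL HSCs, and it is highest in HE and lowest in BM HSCs.

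The sharpest change of the group lay between pre-HSCs and FL HSCs. Of the 10 genes, 9 fell and none rose, where 25% of all tested genes were called in either direction, 11.1% higher and 13.9% lower. The 9 include Cdh5, Pecam1 and Esam, whose proteins were required of pre-HSCs and not of FL HSCs. The part of that gate in the count was not tested. The median log2 fold change of the 10 genes was -3.95, against 0.11 over all tested genes. In bulk libraries fewer cells that carry a transcript and less transcript per cell cannot be told apart. Between HE and Endo none of the 10 genes was called by limma. Its unadjusted p was under 0.05 for 2 of the 10, and for 8.27% of all tested genes. Of all tested genes 0.129% were called in this comparison, 0.0544% higher and 0.0748% lower. Between pre-HSCs and HE 1 gene rose and none fell, with 11.3% of all genes called (6.98% higher, 4.34% lower). Between BM HSCs and FL HSCs 1 gene rose and 2 fell, with 10.1% called (5.99% higher, 4.07% lower). The plot of differences between neighbouring populations shows all 40 of these values.

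**Figure D2:**
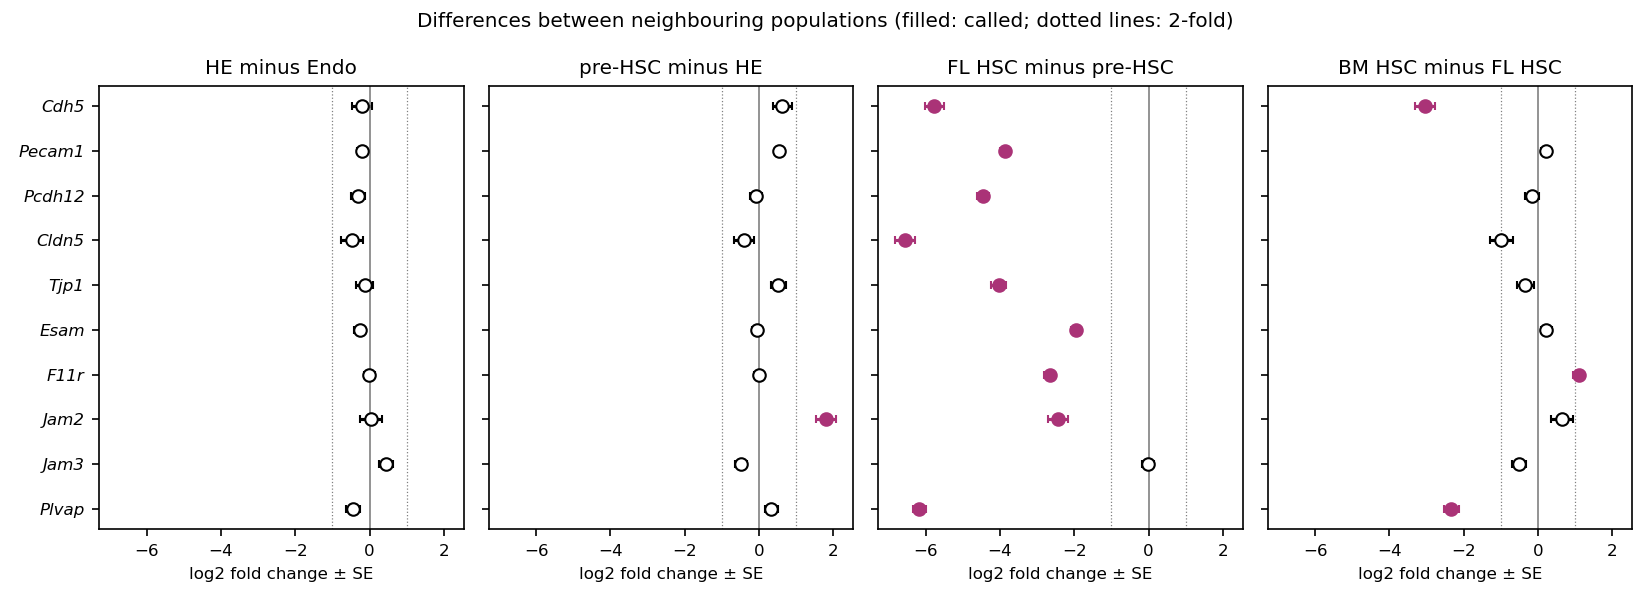
Log2 fold changes of the 10 junction genes between neighbouring populations, each with its standard error from limma, and filled where the gene was called. The panel of FL HSCs minus pre-HSCs holds 9 filled points, all to the left of the dotted line at 2-fold, and Jam3 at -0.01.

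The adherens junction genes were led by Cdh5, which encodes VE-cadherin, the homophilic cadherin of endothelial contacts (mm9, chr8:106625525-106668402). Cdh5 was at 303 and 383 FPKM in Endo samples, 292 and 301 in HE samples, 454, 489 and 429.5 in pre-HSC samples, 11.2 and 4.78 in FL samples, and 0.0257 and 0.0124 in BM samples. All 3 pre-HSC libraries lay above all Endo and HE libraries, the FL libraries lay below all of these, and the BM libraries lay below the FL libraries. The higher level in pre-HSCs, at a log2 difference of 0.62 over HE (SE 0.25), had a limma adjusted p of 0.0963 and was not called. The FL HSC mean was 1.74% of the pre-HSC mean (limma's adjusted p = 1.49e-07). CD144 was in the gate of pre-HSCs alone, and the part of that gate in both differences was not tested. Cdh5 fell again in BM HSCs against FL HSCs, at a log2 difference of -3.04 (SE 0.28, limma's adjusted p = 0.000146).

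Pecam1 encodes CD31, an immunoglobulin-family protein that binds itself between cells and is also found on platelets and leukocytes (chr11:106515531-106611942). It was at 207 and 218 FPKM in Endo samples, 191 and 178 in HE samples, 255, 283 and 272 in pre-HSC samples, 15.4 and 20.2 in FL samples, and 21.2 and 19.9 in BM samples. The pre-HSC libraries were the highest, and the ranges of the BM and FL libraries overlapped. The higher level in pre-HSCs than in HE had an adjusted p of 0.0135 in limma, at a log2 fold change of 0.54 (SE 0.13), which is under 2-fold and was not called. The FL HSC and BM HSC means were 6.58% and 7.61% of the pre-HSC mean, and limma's adjusted p was 2.97e-08 for FL HSCs against pre-HSCs. Pecam1 was not called between BM and FL HSCs. CD31 was required of the 3 populations where Pecam1 was high, and the part of the gate was not tested.

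Pcdh12 encodes protocadherin 12, also known as VE-cadherin-2, an endothelial adhesion protein that does not bind catenins. It was at 30.2 and 31.6 FPKM in Endo samples, 23.4 and 26.2 in HE samples, 23.1, 26.3 and 21.0 in pre-HSC samples, and 0.243 and 0 in FL samples, while both BM samples list it at 0. The HE and pre-HSC ranges overlapped, and every endothelial and pre-HSC library was far above every FL library. The log2 fold change of FL HSCs against pre-HSCs was -4.45 (SE 0.17, limma's adjusted p = 6.17e-08). Its size depended on the pseudocount, at -5.29 with 0.5 and -6.99 with 0.1. Exact zeros in this table need not mean absence. Prpf8, which encodes a core component of the spliceosome, has the value 0 in pre-HSC replicate 3 but 36.0 to 129 FPKM in the other libraries. What gave that 0 is not known. No fold is therefore given against BM HSCs for Pcdh12.

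Among the tight junction genes Cldn5 had the highest level in Endo. It encodes claudin 5, the main claudin of endothelial tight junction strands (chr16:18776940-18778353). It was at 681 and 504 FPKM in Endo samples, 464 and 380.0 in HE samples, 284, 330.4 and 335 in pre-HSC samples, 3.68 and 1.43 in FL samples, and 0.395 and 1.08 in BM samples. No library of a later population reached the range of an earlier one, which for Cldn5 held across all 5 populations. Neither step before FL HSCs was called, at a log2 difference of -0.48 for HE minus Endo (SE 0.30, limma's adjusted p = 0.818). For pre-HSCs minus Endo, which share libraries with the comparisons of neighbours, it was -0.89 (SE 0.28, limma's adjusted p = 0.0392), short of 2-fold. In FL HSCs Cldn5 fell by 6.55 on the log2 scale (SE 0.28, limma's adjusted p = 1.09e-07), the largest fall of the 10 genes on the log2(FPKM + 1) scale in that comparison.

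Tjp1 encodes ZO-1, the scaffold protein that binds claudins and junctional adhesion molecules from inside the cell (chr7:72441051-72516125). It was at 34.7 and 52.6 FPKM in Endo samples, 37.1 and 40.7 in HE samples, 59.5, 63.7 and 46.8 in pre-HSC samples, 2.02 and 3.02 in FL samples, and 1.77 and 1.73 in BM samples. Endo overlapped both HE and pre-HSCs, and all FL and BM libraries lay below. The log2 fold change of FL HSCs against pre-HSCs was -4.04 (SE 0.21, limma's adjusted p = 4.01e-07). That of pre-HSCs against HE was 0.52 (SE 0.21, limma's adjusted p = 0.0924) and was not called.

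Esam encodes an immunoglobulin-family protein of endothelial tight junctions and platelets (chr9:37335663-37345904). It was at 234 and 204 FPKM in Endo samples, 196 and 168 in HE samples, 166, 186 and 174 in pre-HSC samples, 40.1 and 48.6 in FL samples, and 55.3 and 48.1 in BM samples. The HE and pre-HSC ranges overlapped, as did those of BM and FL HSCs. Esam kept 25.3% of its pre-HSC mean in FL HSCs and 29.5% in BM HSCs (limma's adjusted p = 2.58e-06 for FL HSCs against pre-HSCs), and it was the most abundant of the 10 genes in both HSC populations. The part of the ESAM gate, used for pre-HSCs alone, was not tested.

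For 3 of the 10 genes, all of the tight junction group, a RefSeq promoter sequence was at hand, and the 250 bases before the start are shown because the 3 genes share a loss of transcript in HSCs while differing in size, at 0.808%, 4.45% and 14.8% of the pre-HSC mean in FL HSCs for Cldn5, Tjp1 and F11r. The windows are on GRCm38.p6, unlike the mm9 positions above, and lie at chr16:18776597-18776846 on the plus strand for Cldn5, chr7:65371245-65371494 on the minus strand for Tjp1 and chr1:171437311-171437560 on the plus strand for F11r. Capitals mark GGAA, the core of ETS-family sites, and GGGCGG, the core of Sp-family GC boxes, each read on both strands, so that TTCC and CCGCCC are capitals as well.
Cldn5: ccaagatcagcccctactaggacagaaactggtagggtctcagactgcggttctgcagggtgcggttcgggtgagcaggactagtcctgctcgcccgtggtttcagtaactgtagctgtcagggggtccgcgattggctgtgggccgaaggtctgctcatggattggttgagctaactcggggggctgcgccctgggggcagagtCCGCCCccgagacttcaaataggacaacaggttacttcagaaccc
Tjp1: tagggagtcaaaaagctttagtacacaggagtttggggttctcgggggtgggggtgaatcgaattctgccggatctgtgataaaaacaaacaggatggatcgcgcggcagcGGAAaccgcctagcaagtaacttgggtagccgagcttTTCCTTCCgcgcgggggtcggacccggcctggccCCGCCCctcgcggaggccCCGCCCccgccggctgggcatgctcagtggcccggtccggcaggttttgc
F11r: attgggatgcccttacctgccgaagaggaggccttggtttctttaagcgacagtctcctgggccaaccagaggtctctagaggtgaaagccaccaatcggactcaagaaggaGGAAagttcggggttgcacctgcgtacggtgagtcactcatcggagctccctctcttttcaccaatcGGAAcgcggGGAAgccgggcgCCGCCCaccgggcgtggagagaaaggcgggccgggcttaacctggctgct

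GGAA was found 3 times each in the Tjp1 and F11r windows and 0 times in the Cldn5 window, and 93.4% of 32851 promoter windows of the same length hold it, with a median of 3 matches. GGGCGG was found 2 times in the Tjp1 window and 1 time each in those of Cldn5 and F11r, against 32.7% of all windows with at least 1 match. The 2 motifs do not overlap each other in these windows. The nearest GGGCGG match lay 45 bases before the start in Cldn5 and 50 bases before it in both Tjp1 and F11r. These matches describe letters in a window and were not tested against expression.

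The junctional adhesion molecules (JAMs) bind one another between cells and bind leukocyte integrins, and JAM-B and JAM-C, the products of Jam2 and Jam3, form a pair. F11r, which encodes JAM-A (chr1:173367666-173394734), was at 78.4 and 78.0 FPKM in Endo samples, 81.6 and 74.1 in HE samples, 72.4, 83.8 and 77.7 in pre-HSC samples, 9.89 and 13.3 in FL samples, and 23.8 and 27.4 in BM samples. The 7 endothelial and pre-HSC libraries formed 1 range, the BM libraries lay below it, and the FL libraries lay lowest. F11r was lower in FL HSCs than in pre-HSCs, at -2.66 on the log2 scale (SE 0.14, limma's adjusted p = 4.49e-07), and was higher in BM HSCs than in FL HSCs by 1.09 on that scale (SE 0.15, limma's adjusted p = 0.00134). It was the only one of the 10 genes called higher in BM HSCs than in FL HSCs.

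Jam2 (chr16:84774368-84826173) was the only one of the 10 genes called higher in pre-HSCs than in HE. It was at 2.44 and 1.47 FPKM in Endo samples, 2.11 and 1.86 in HE samples, 8.85, 10.4 and 9.21 in pre-HSC samples, 0.419 and 1.63 in FL samples, and 1.75 and 2.27 in BM samples. The 3 pre-HSC libraries stood clear of all 8 others. The log2 fold change was 1.81 over HE (SE 0.27, limma's adjusted p = 0.00178) and 1.85 over Endo (SE 0.27, limma's adjusted p = 0.00167), in comparisons that share the pre-HSC libraries. Against Endo it was again the only gene of the 10 that rose and none fell, where 10.3% of all tested genes were called (7.72% higher, 2.57% lower). Jam2 then fell by 2.44 on the log2 scale in FL HSCs (SE 0.27, limma's adjusted p = 6.16e-05).

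Jam3 (chr9:26904969-26963003) stayed at a similar level where the rest of the group fell. It was at 17.8 and 20.9 FPKM in Endo samples, 24.1 and 28.8 in HE samples, 21.4, 18.3 and 16.02 in pre-HSC samples, 16.1 and 20.7 in FL samples, and 12.3 and 12.6 in BM samples. The FL and pre-HSC ranges overlapped, the HE libraries were highest and the BM libraries lowest. The log2 fold change of FL HSCs against pre-HSCs was -0.01 (SE 0.17, 95% interval -0.39 to 0.36, limma's adjusted p = 0.953), and it turned to 0.16 without FL HSC replicate 1 and to 0.09 without pre-HSC replicate 1. The other steps did not pass either, with 0.43 for HE minus Endo (SE 0.18, limma's adjusted p = 0.572), -0.49 for pre-HSCs minus HE (SE 0.17, limma's adjusted p = 0.0566) and -0.52 for BM HSCs minus FL HSCs (SE 0.18, limma's adjusted p = 0.0695). Between the ends of the series, BM HSCs minus Endo gave -0.59 (SE 0.18, limma's adjusted p = 0.0191), which is short of 2-fold.

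These unequal changes altered the make-up of the JAM family. Jam3 made up 58.2% to 61.0% of the summed FPKM of the 3 genes in the FL libraries and 15.6% to 20.9% in the pre-HSC libraries, without overlap. F11r supplied on average 78.6% of the sum in Endo, 73.2% of it in HE, 73.5% in pre-HSCs, then 37.3% in FL HSCs and 63.8% in BM HSCs. Jam2 reached 8.94% in pre-HSCs and was at 1.97% in Endo, 1.86% in HE, 3.08% in FL HSCs and 5.00% in BM HSCs.

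**Figure D3:**
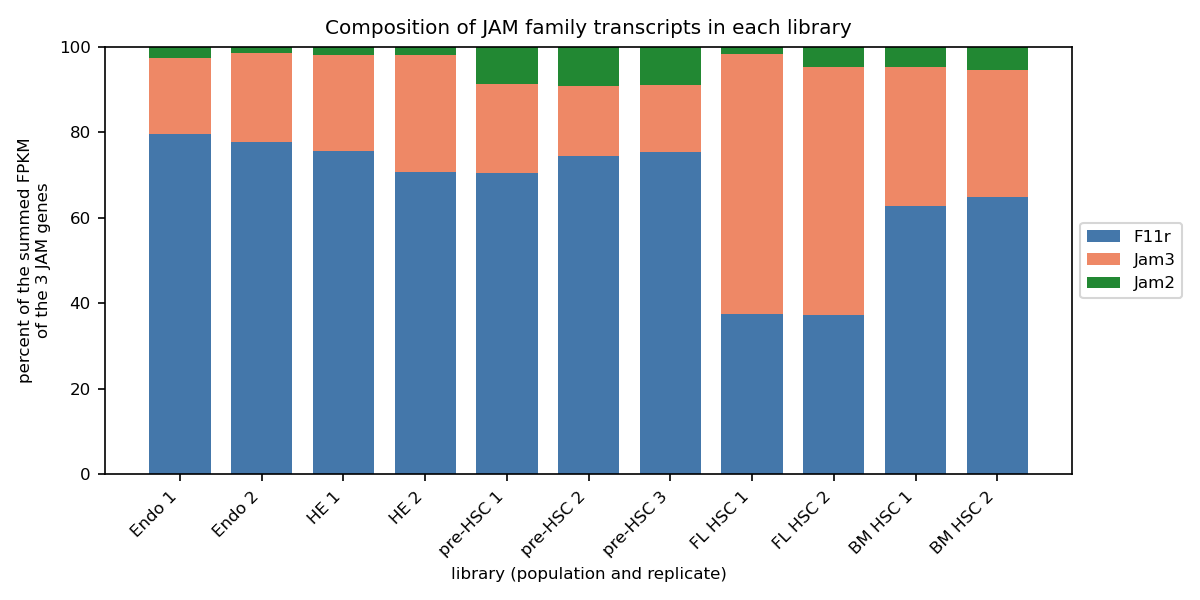
Percent of the summed FPKM of F11r, Jam3 and Jam2 that each gene supplied, with 1 bar a library. Jam3 takes more than F11r in both FL HSC libraries, at 58.2% to 61.0%, and F11r takes most in the other 9 libraries.

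Plvap encodes the protein that forms the diaphragms of endothelial fenestrae and caveolae (chr8:74021653-74035668). It was at 662 and 627 FPKM in Endo samples, 511 and 440.5 in HE samples, 576, 615 and 606 in pre-HSC samples, 9.42 and 5.67 in FL samples, and 0.533 and 0.791 in BM samples. The HE libraries lay below those of Endo and pre-HSCs, though the log2 fold change of -0.44 for HE minus Endo did not pass the test (SE 0.19, limma's adjusted p = 0.596). Plvap fell by 6.17 on the log2 scale in FL HSCs against pre-HSCs (SE 0.18, limma's adjusted p = 1.46e-08) and by another 2.33 in BM HSCs against FL HSCs (SE 0.19, limma's adjusted p = 9.08e-05).

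The calls between BM and FL HSCs rested on the shared estimate of the spread. When limma was fitted on the 4 libraries of these 2 populations alone, the adjusted p of Cdh5, F11r and Plvap was 0.085, 0.104 and 0.0777, and none of the 10 genes was called, with 3 at an unadjusted p under 0.05. That fit called 0 of all 14708 tested genes, with 3943 at an unadjusted p under 0.05, so the loss was not particular to the 10 genes. Cldn5, at -0.99 (SE 0.30, limma's adjusted p = 0.0424), and Jam2, at 0.64 (SE 0.30, limma's adjusted p = 0.155), were not called in this comparison. Without FL HSC replicate 2 both were, at -1.46 and 1.08, but that fit held 1 FL HSC library, with the spread taken from the other populations. Without FL HSC replicate 1 F11r was at 0.90, short of 2-fold, and was not called, again with 1 FL HSC library left. Without BM HSC replicate 2, with 1 BM HSC library left, F11r was at 0.99, again short of 2-fold, while Cldn5 was called.

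Between the ends of the series 8 of the 10 genes were lower in BM HSCs than in Endo and none was higher, where 36.2% of all tested genes were called in either direction, 21.1% higher and 15.1% lower. The 8 include Pcdh12, whose call rests on values of exactly 0 in both BM libraries, which need not mean absence. On the log2(FPKM + 1) scale the largest fold changes were -8.60 for Plvap (SE 0.19, limma's adjusted p = 2.02e-09) and -8.43 for Cldn5 (SE 0.30, limma's adjusted p = 2.76e-08). Cdh5 followed at -8.39 (SE 0.28, limma's adjusted p = 1.82e-08). Their BM means lay below 1 FPKM, where this scale understates a fall. As a percent of the Endo mean they were 0.00556% for Cdh5, 0.103% for Plvap and 0.125% for Cldn5. Esam and F11r showed the smallest called falls, at -2.06 and -1.58 (SE 0.15 each). Jam2 was not called, at 1.75 and 2.27 FPKM in BM HSCs against 2.44 and 1.47 in Endo. The comparison shares its libraries with those of neighbouring populations and adds no separate evidence.

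The level left in HSCs separated the 10 genes by more than 2 orders of magnitude. FL HSC means ranged upward to 99.0% of the pre-HSC mean in Jam3, with a median of 5.52%. The lowest were Pcdh12 at 0.517% and Cldn5 at 0.808%, but Pcdh12 was listed at 0 in FL HSC replicate 2, and without that library it was at 1.03%, above Cldn5, a value added after the zeros were seen. In BM HSCs Cdh5 kept 0.00417%, Plvap 0.111% and Cldn5 0.233%, while Tjp1 kept 3.08%, Jam2 21.2%, F11r 32.8% and Jam3 66.9%. In FL HSCs, where 13.9% of all tested genes were called lower, all of 8 endothelial genes outside the group fell. Their FL means were 0.853% to 36.3% of the pre-HSC mean with a median of 15.2%, and their BM means were 0.092% to 49.8%. In BM HSCs Flt1, a VEGF receptor, kept the least of the 8, and Eng, a TGF-beta co-receptor, kept the most. The ranges of the 2 lists overlapped, and a difference between the lists was not tested.

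**Figure D4:**
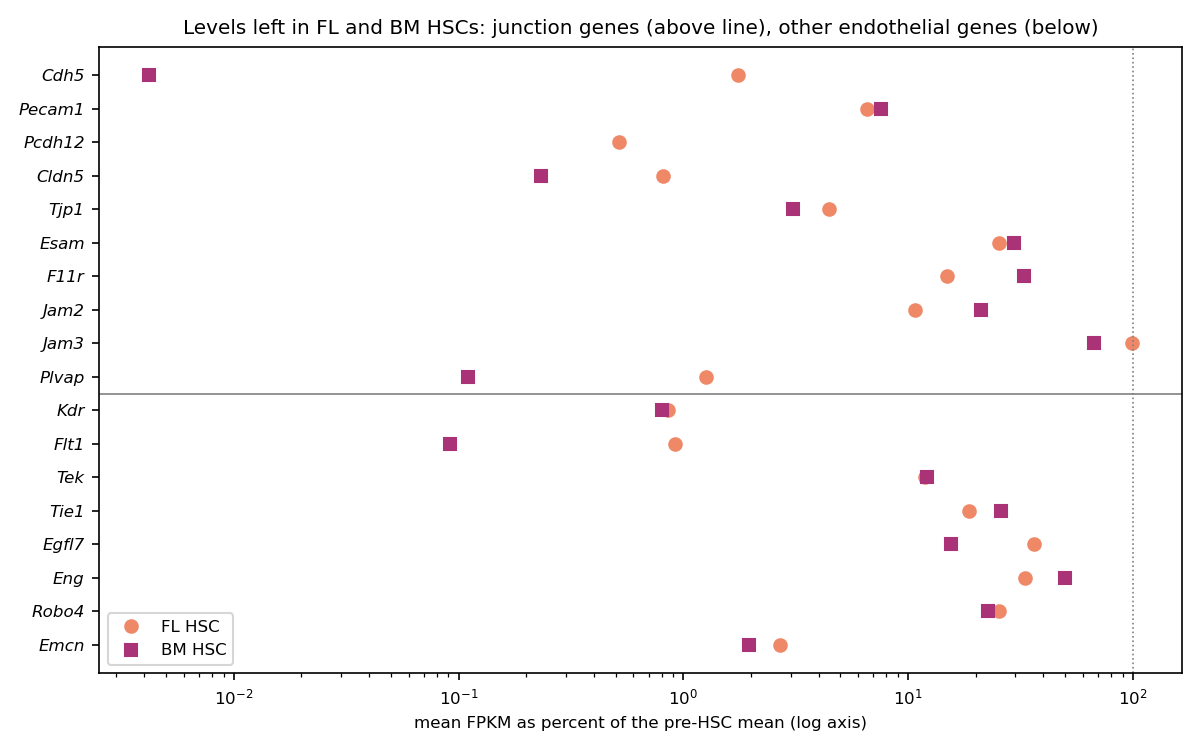
Mean FPKM in FL HSCs (circles) and BM HSCs (squares) as a percent of the pre-HSC mean on a log axis, for the 10 junction genes above the line and 8 other endothelial genes below it. Jam3 lies near the dotted line at 100%, Cdh5, Flt1, Plvap and Cldn5 have the squares farthest to the left, and Pcdh12 has no square because it was listed at 0.

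Partners of the junction proteins were taken from 6 lists, and in FL HSCs against pre-HSCs they did not all move like the 10 genes. Of all tested genes 13.9% were called lower and 11.1% higher there. Between BM HSCs and FL HSCs, also given for some lists below, the shares were 4.07% lower and 5.99% higher. Among 11 adherens junction partners 9 fell in FL HSCs against pre-HSCs and none rose, with a median log2 fold change of -2.24. The largest falls were those of Ptprb, the VE-PTP phosphatase that acts on VE-cadherin, at -4.57 (SE 0.18, limma's adjusted p = 8.98e-08), of Pvrl2 (nectin-2) at -3.29 (SE 0.15, limma's adjusted p = 1.95e-07) and of Cdh2 (N-cadherin) at -3.14 (SE 0.22, limma's adjusted p = 3.08e-06). Among 17 tested tight junction partners 8 fell and 1 rose, with a median of -0.76. The falls included Cgnl1 (paracingulin) at -4.05 and Amotl1 (angiomotin-like 1) at -4.04 (SE 0.22 each), while Tjp3 (ZO-3), at 1.24 (SE 0.22, limma's adjusted p = 0.00111), rose.

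All 6 caveolar genes set beside Plvap fell in FL HSCs, with a median of -2.91, led by Cav1 (caveolin 1) at -5.67 (SE 0.70, limma's adjusted p = 0.000117) and Ehd2, a membrane ATPase of the caveolar neck, at -4.21 (SE 0.12, limma's adjusted p = 1.35e-08). Cav1 was listed at 0 in FL HSC replicate 1. Without that library, left out after the zero was seen, Cav1 was at -4.91, with 1 FL HSC library left. In BM HSCs against FL HSCs this list split, with 3 rising and 1 falling, and the calls were lost when these populations were fitted alone, where limma called 0 of the 89 tested partner and marker genes (47 at an unadjusted p under 0.05). Sdpr (cavin-2) was higher by 3.34 (SE 0.18, limma's adjusted p = 5.62e-06), Ptrf (cavin-1) by 2.0 (SE 0.20, limma's adjusted p = 0.000218), and Ehd2 was lower, at -1.25 (SE 0.13, limma's adjusted p = 0.000257). Plvap fell in the same comparison.

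Of the 6 genes of Rap1 and CCM signaling, which steady the junction from inside, 1 fell in FL HSCs and none rose. It was Rasip1, a Rap1 effector of vessel formation, at -3.75 (SE 0.15, limma's adjusted p = 9.16e-08), and it fell again in BM HSCs against FL HSCs at -2.20 (SE 0.17, limma's adjusted p = 6.23e-05). In that comparison Rasip1 was the only 1 of the 6 that fell, while 2 rose, and the list median was 0.55. These calls too were lost when the 2 populations were fitted alone. Of 7 other endothelial adhesion genes 6 fell in FL HSCs against pre-HSCs. They were led by Mcam (CD146) at -5.84 (SE 0.12, limma's adjusted p = 2.45e-09) and Emcn (endomucin) at -5.14 (SE 0.16, limma's adjusted p = 2.42e-08). Emcn is also on the list of endothelial genes outside the group. The 5 integrin subunits that bind JAMs went the other way for the most part, with 3 higher and 1 lower. Itgb2, the beta chain of the leukocyte integrins that include the JAM-A ligand, rose by 2.02 (SE 0.27, limma's adjusted p = 0.000226) and Itga4 by 1.78 (SE 0.24, limma's adjusted p = 0.000205). Itgb1, the shared beta chain, was lower, at -1.75 (SE 0.16, limma's adjusted p = 1.46e-05).

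**Figure D5:**
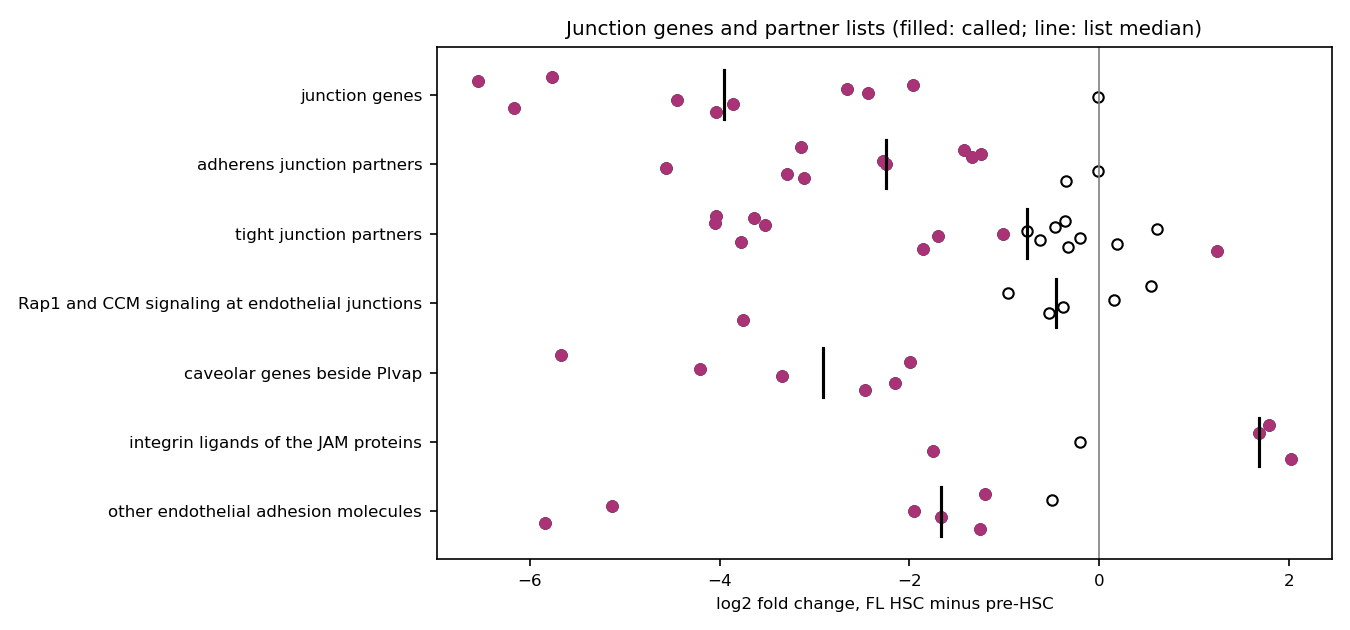
Log2 fold changes in FL HSCs minus pre-HSCs for the 10 junction genes and 6 partner lists, with 1 point a gene, filled where called, and a line at the list median. The medians lie at -3.95 for the junction genes, -2.24 for adherens junction partners, -0.76 for tight junction partners and -2.91 for caveolar genes, and 3 integrin subunits lie to the right of 0.

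Between pre-HSCs and HE, where Jam2 was the only junction gene called, several partners also differed. Ptprb was higher in pre-HSCs by 1.78 (SE 0.18, limma's adjusted p = 0.000281), Cldn11 (claudin 11) by 2.34 (SE 0.32, limma's adjusted p = 0.00117) and Ocln (occludin) by 1.23 (SE 0.21, limma's adjusted p = 0.00321). Cldn3 (claudin 3), at -1.52 (SE 0.36, limma's adjusted p = 0.0135), and Cgn (cingulin), at -1.36 (SE 0.31, limma's adjusted p = 0.0112), were lower. Of the 5 integrin subunits 4 rose, where 6.98% of all tested genes were called higher. The largest rises were those of Itgam at 2.37 (SE 0.35, limma's adjusted p = 0.0017) and Itgal at 2.22 (SE 0.40, limma's adjusted p = 0.00418). Between HE and Endo limma called none of the 52 tested partner genes. Its unadjusted p was under 0.05 for 6 of them, and for 8.27% of all tested genes.

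Markers of other cell types moved along with the populations. The summed FPKM of 8 blood genes was 37.3 to 38.8 in Endo, 46.9 to 63.1 in HE, 309 to 587 in pre-HSCs, 1047 to 1182 in FL HSCs and 1091 to 1252 in BM HSCs. The 8 endothelial genes outside the group summed to 1835 to 2027 in Endo, 1446 to 1690 in HE, 1882 to 2111 in pre-HSCs, 365 to 411 in FL HSCs and 295 to 302 in BM HSCs. By these sums pre-HSCs had endothelial genes at the level of Endo together with blood genes that Endo and HE had at a low level. Of the 8 endothelial genes 1 was called higher in pre-HSCs than in Endo and none lower. Of all tested genes 7.72% were called higher and 2.57% lower in that comparison. Bulk libraries cannot tell whether the same cells carried both sets. Megakaryocyte and platelet genes matter because ESAM, CD31 and JAM-A are platelet proteins. Of 7 tested, 4 were higher in BM HSCs than in FL HSCs, where 5.99% of all tested genes were called higher. The 8 listed genes summed to 846 to 849 in BM HSCs against 158 to 259 in FL HSCs. Gp6, a platelet receptor, was listed at 0 in all FL and BM libraries. F11r was higher in BM HSCs as well, and the part of these cells in it was not tested. Erythroid genes, 4 in all, summed to 119 to 167 FPKM in FL HSCs against 6.43 to 7.72 in pre-HSCs. Of the 4, 3 rose, where 11.1% of all tested genes were called higher. Their sums were 26.8 to 36.6 in Endo, 35.3 to 47.4 in HE and 21.1 to 30.6 in BM HSCs. The part of erythroid cells in the differences between FL HSCs and pre-HSCs was not tested.

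The HE libraries held more transcript of marker genes of 2 other cell types than the Endo libraries. Mural and mesenchymal genes, 6 in all, summed to 989 to 1004 FPKM in HE against 168 to 374 in Endo, and 2 of them, the smooth muscle genes Acta2 and Tagln, were called higher. The study also reports both as higher in HE, and regards them as likely involved in the change of cell shape during the transition to blood. Epithelial genes, 5 in all, summed to 226 to 471 in HE against 47.9 to 163 in Endo, without a call. All 5 were lower in pre-HSCs than in HE, at a sum of 29.3 to 48.6, where 4.34% of all tested genes were called lower. Cldn3 and Cgn, which are epithelial as well as tight junction genes, were lower in pre-HSCs in the same comparison. Of the 17 tested tight junction partners 2 fell and 2, Ocln and Cldn11, rose there. The part of epithelial cells in these differences was not tested. In FL HSCs 5 of the 6 mural and 4 of the 5 epithelial genes had a mean under 1 FPKM, and the keratin gene Krt19 was listed at 0. The part of such cells in the lower Plvap and Cldn5 levels of HE was not tested.

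Across the 11 libraries, 8 of the 10 genes ran closely together and Jam2 and Jam3 did not. As a description over libraries that share 5 populations, the Pearson r of log2(FPKM + 1) with the other 9 members had a median of 0.98 for Pcdh12, 0.97 for Cldn5 and 0.91 for F11r, but 0.62 for Jam3 and 0.51 for Jam2. The genes outside the group most like Plvap were Ehd2 (r = 0.998), Nos3, the endothelial nitric oxide synthase (r = 0.998), and Plxnd1, an endothelial semaphorin receptor (r = 0.998). Tjp1 was most like Limch1, Fam38b and Amotl1, and Cdh5 most like D0H4S114, Lrrc32 and Anxa3. For Jam2 the closest was Pam, a peptide-amidating enzyme, at 0.98, and for Jam3 it was Arhgef25 at 0.93. Closest matches of the other 8 members were at 0.99 or above.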

How the data were processed

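RNA-seq libraries were poly(A)-selected and sequenced paired-end. The authors aligned reads with TopHat (mm9), retained those that mapped uniquely, used Ensembl genes and deposited FPKM values per gene and library. Subread, featureCounts, Cufflinks and edgeR are named in the submitters' processing notes, without versions. The tool behind the FPKM was not given in the sources used here. GENCODE M1 on NCBIM37 (mm9) held 37038 (97.9%) of the 37820 identifiers. Whole reads could not be recovered, since no FPKM was shared by more than 6 single-exon genes in any library, so depth is unknown and no counting interval is given. Log2(FPKM + 1) of 14708 genes, those reaching an FPKM of 1 in 2 or more libraries, was fitted with limma 3.58.1 (lmFit, eBayes with a trend) in R 4.3.3, with population as the factor, and checked on simulated data. Promoter windows came from RefSeq.

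All 10 members are named, with the 3 genes most correlated with each at a mean FPKM of at least 10, and up to 3 called genes with the largest changes per partner list. Members and lists were chosen with earlier results of these data known. Alternatives were pseudocounts of 0.1 and 0.5, no filter, quantile and equal-total scaling, an adjusted p under 0.01, no F test, a block for the replicate number, a fit on the 2 populations compared alone, and each library left out in turn. Tables and plots used pandas 2.3.3, matplotlib 3.10.9 and numpy 2.4.6 under Python 3.11.15.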

Additional observations from a re-analysis of the deposited data

How the results depend on the processing

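Of 60 differences of the 10 genes over 6 comparisons, 22 were called, and 19 of these kept their sign and call under all 20 alternatives. The other 3, Cdh5, F11r and Plvap between BM and FL HSCs, lost the call with only the populations compared, which left 0 calls there in limma (3 at an unadjusted p under 0.05), and F11r also lost it without FL HSC replicate 1 or BM HSC replicate 2. With each library left out in turn, the calls between BM and FL HSCs ranged from 2 to 5. Cldn5 was called there with pseudocounts of 0.1 (-1.65) and 0.5 (-1.26), with quantile normalization (-1.04), without FL HSC replicate 2 and without BM HSC replicate 2. Jam3 in FL HSCs minus pre-HSCs ranged from -0.19 to 0.16 with a library left out. Of 25 uncalled differences given by FPKM alone, 12 changed sign under at least 1 alternative and 0 were called under any.

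Deviations of same-numbered libraries correlated at -0.16 to 0.16 over 20 pairs, 8 of them above 0.1, reaching 0.12 for Endo with HE, 0.16 for Endo with FL HSCs, 0.14 for HE with FL HSCs and -0.16 for BM with FL HSCs. With 2 libraries a population, both numbers give the same correlation. Endo and HE were sorted from the same kind of embryos, but the sources used here do not say whether a number marks a shared pool, so pairing was not established. With the replicate block 22 of the 60 differences were called, as without it, and among all genes 11 were called for HE minus Endo, against 19.

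Scaling to equal totals moved the median of all genes by 0.13 for pre-HSCs minus HE, -0.20 for FL HSCs minus pre-HSCs, 0.21 for pre-HSCs minus Endo and 0.13 for BM HSCs minus Endo, and quantile normalization moved it by -0.18 and -0.19 in the last 2. The share of called genes that were higher was 61.6% as deposited, 73.4% with equal totals and 50% with quantile normalization for pre-HSCs minus HE, and 44.5%, 32.6% and 47.0% for FL HSCs minus pre-HSCs. Over all alternatives the calls among all genes ranged from 0 to 31 for HE minus Endo, against 19, and from 0 to 2046 for BM HSCs minus FL HSCs, against 1480. Depth is unknown, which limits the low FPKM values of Pcdh12, Cdh5 and Jam2 in HSCs.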
